A study of Mus musculus with 12 samples.

Results

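The 8 genes Osr1, Osr2, Tbx15, Tbx18, Tbx5, Runx1, Runx2 and Shox2 encode transcription factors of limb and skeletal mesenchyme. They were taken by gene symbol from tables of 20325 genes, and all 8 were among the 13936 genes with enough counts to be tested. The RNA-seq libraries, 2 in each of 6 groups, represent mouse embryonic fibroblasts (MEFs) or day 4 of their reprogramming towards pluripotent stem cells. Every group carried rtTA and the OSKM reprogramming factors, which doxycycline turns on, and came from a line with conditional AF10 (Mllt10) alleles; AF10 is a partner of DOT1L, the enzyme that methylates histone H3 at lysine 79. MEF_fl (AF10 fl/fl, empty adenovirus) and MEF_creAF10 (AF10 -/-, adenovirus with Cre recombinase) were not reprogrammed. Day4_fl_DMSO and Day4_creAF10_DMSO were the same genotypes after 4 days in 2 µg/mL doxycycline with the vehicle DMSO, and Day4_fl_SGC and Day4_creAF10_SGC received 5 µM SGC0946, an inhibitor of DOT1L, in its place. Reprogramming cells were grown in embryonic stem cell medium on DR4 feeder MEFs, so medium, feeder cells and doxycycline all differed between MEFs and day 4 and cannot be told apart. Any feeder RNA in the day 4 libraries cannot be told apart from RNA of the reprogramming cells. No cells without floxed alleles received Cre, so AF10 deletion and the Cre virus cannot be told apart either. The labels do not give the age or number of the embryos.

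Osr1 and Osr2 are odd-skipped zinc finger proteins of intermediate mesoderm and limb connective tissue. Tbx15, Tbx18 and Tbx5 bind DNA through a T-box: Tbx5 is needed to start the forelimb bud, and Tbx15 and Tbx18 act in the dermis, the skeleton and the mesenchyme around organs. Runx2 is the master regulator of osteoblasts, its relative Runx1 is best known from blood stem cells, and Shox2 is a homeodomain protein of the proximal limb and the cardiac pacemaker. Fibroblasts keep expressing many such factors of their place of origin in culture.

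Expected counts summed to 14602536 to 22800753 per library, and the 8 genes had 97 to 5263 counts each. Replicates 1 and 2 came from different sources of cells: the counts of Uty, Kdm5d, Eif2s3y and Ddx3y, which lie on the Y chromosome, added up to 4035 to 4780 in replicate 1 libraries and 8 to 52 in replicate 2 libraries. Mllt10 RNA was 43.1 and 45.4 CPM (counts scaled to a common library size) in MEF_fl and 35.4 and 34.4 CPM in MEF_creAF10, and 61.4 and 55.3 CPM in Day4_fl_DMSO against 44.2 and 41.8 CPM in Day4_creAF10_DMSO; the deleted part of the gene cannot be read separately from these tables. Fibroblast markers were abundant in MEFs, where 15 of them summed to 54900 to 75800 CPM, and summed to 22100 to 23500 CPM in the 8 day 4 libraries. In bulk RNA, fewer cells that express a gene and less RNA per cell cannot be told apart.

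Each difference was tested with edgeR's quasi-likelihood test over all 13936 genes, and a gene was called at a Benjamini-Hochberg adjusted p under 0.05. The first fit treats the 2 libraries of a group as independent. The paired fit, for comparisons within MEFs or within day 4, removes the difference between replicates 1 and 2 at that stage. That difference may hold a batch as well as the cell source. For day 4 against MEFs the paired values below come from 1 replicate term shared by both stages. With 2 sources, no p-value measures the spread between many animals, and fold changes are given on the log2 scale ± SE. The factors and gene lists were chosen with earlier results of these data known. Counts and medians set beside those of all genes are therefore descriptions, not tests.

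In MEFs, per transcript length, the T-box factor Tbx15 and the odd-skipped factors led, and the RUNX genes were lowest. Tbx15 stood highest in MEF_fl at 138 ± 3.27 TPM (TPM, counts scaled by transcript length and library; SD, n = 2), followed by Osr1 at 125 ± 31.7 TPM and Osr2 at 92.7 ± 5.72 TPM. Then came Tbx18 at 40.7 ± 21.7 TPM, Shox2 at 25.1 ± 3.72 TPM, Tbx5 at 22.5 ± 8.82 TPM, Runx2 at 14.7 ± 0.728 TPM and Runx1 at 10.6 ± 3.62 TPM. Libraries of neighbours in this order overlapped for Tbx15 and Osr1, Tbx18 and Shox2, and Shox2 and Tbx5. On day 4 in DMSO, Tbx15 stayed first at 141 ± 2.52 TPM and Osr2 second at 96.9 ± 20.1 TPM, while Osr1 at 34.1 ± 2.58 TPM now stood below Tbx18 at 40.8 ± 8.28 TPM, with overlapping libraries. Under SGC0946, Runx2 at 7.72 ± 0.276 TPM and Tbx5 at 7.0 ± 0.7 TPM were the lowest of the 8 in fl cells, and Runx1 at 13.4 ± 0.778 TPM lay beside Osr1 at 13.5 ± 1.41 TPM.

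**Figure D1:**
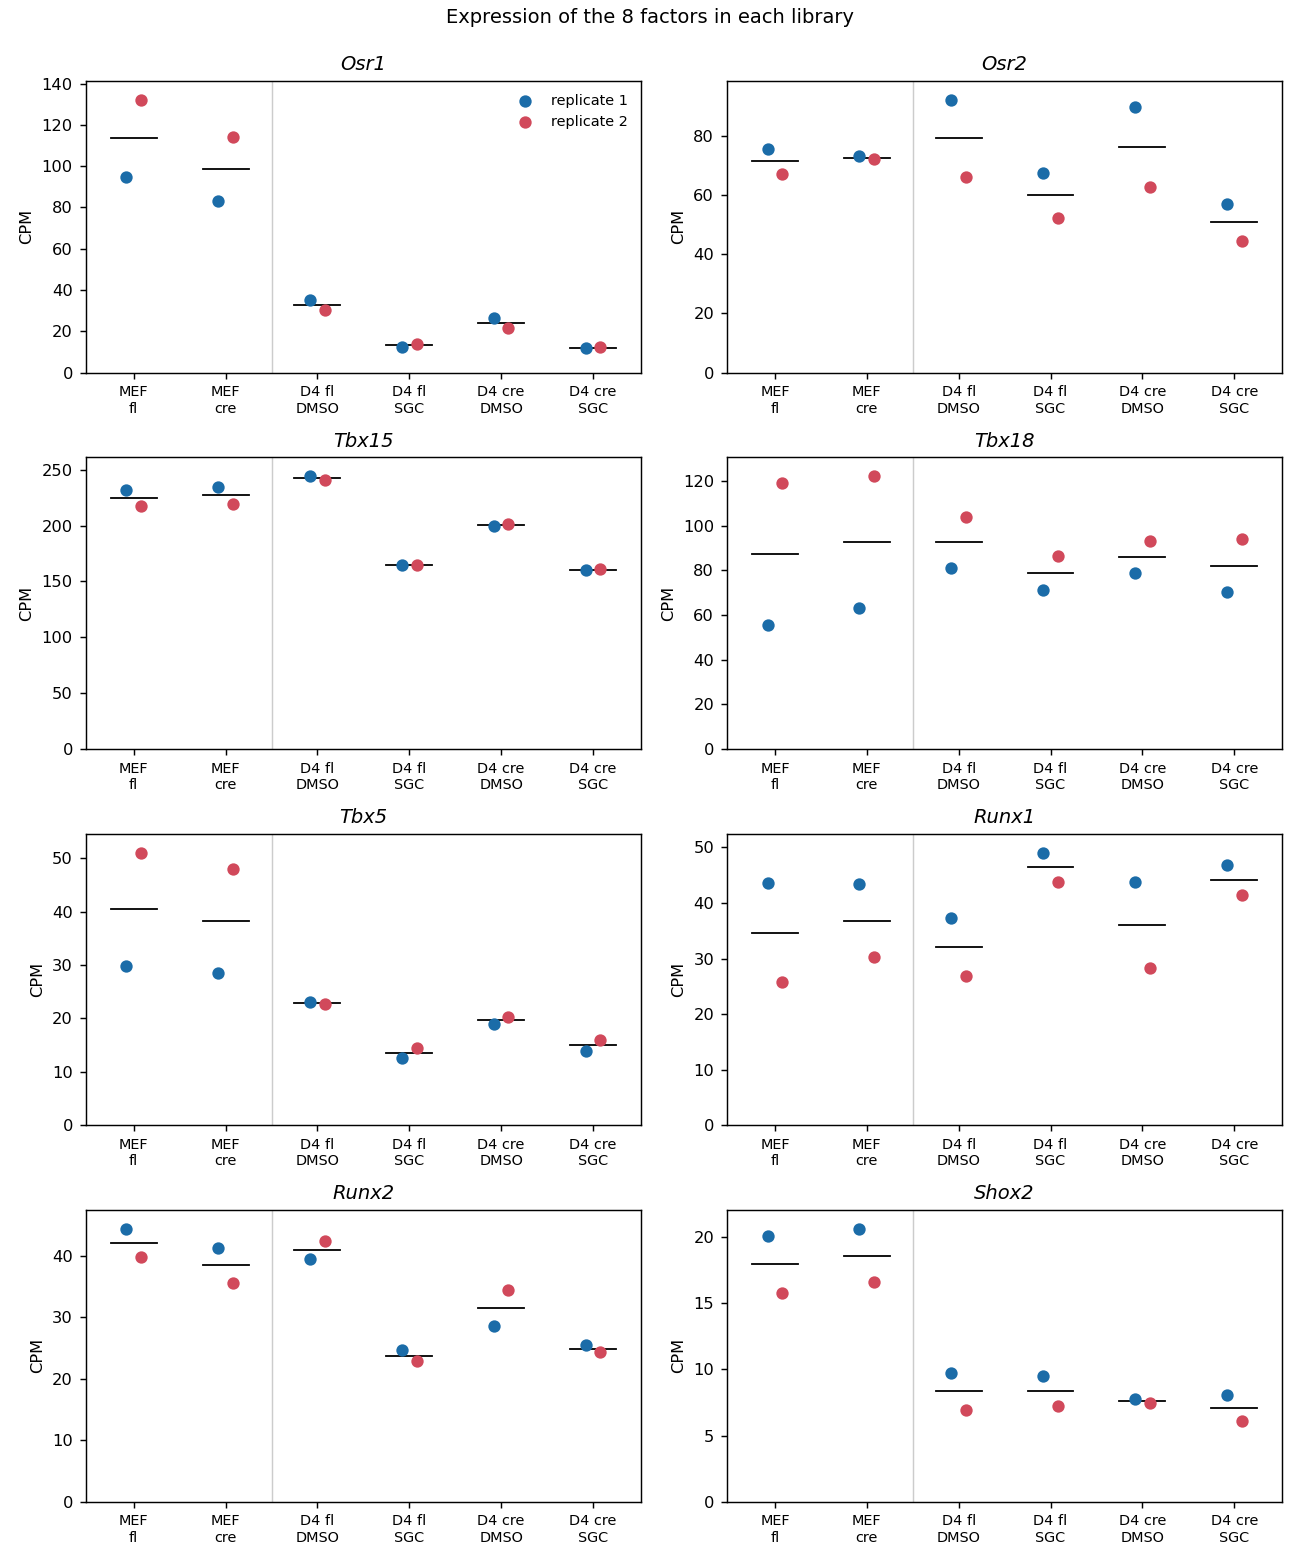
CPM of each of the 8 factors (vertical axes, linear, starting at 0) in every library, by group (horizontal axis; D4, day 4; cre, AF10-deleted; SGC, SGC0946), with blue points for replicate 1, red points for replicate 2 and black lines for group means. Osr1, Tbx5 and Shox2 lie lower on day 4 than in MEFs, and Osr1 is lowest under SGC0946, between 11.8 and 14.1 CPM.

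The first comparison asks which of the factors changed over 4 days of reprogramming in cells with intact AF10. Osr1, Shox2 and Tbx5 fell, and the other 5 factors were not called. Osr1, which marks intermediate mesoderm and connective tissue progenitors, was at 95.0 and 132 CPM in MEF_fl and at 35.2 and 30.5 CPM in Day4_fl_DMSO. Both day 4 libraries lay far below both MEF libraries, at 28.9% of the MEF mean, and the change was -1.79 ± 0.20 (adjusted p = 7.87e-05). Shox2, a regulator of proximal limb bone growth, was at 20.1 and 15.8 CPM in MEFs and at 9.71 and 6.97 CPM on day 4. The groups did not overlap, and Shox2 fell by 1.11 ± 0.22 (adjusted p = 0.00241). Exons of Shox2 overlap those of Rsrc1 on the opposite strand in the GENCODE annotation of build GRCm38. The same holds for Tbx18 with D030062O11Rik, Runx1 with Gm26626 and Runx2 with Runx2os1. Whether counting used strand is not given in the sources used here, so reads from the shared stretches of these 4 factors cannot be told apart.

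Tbx5, the forelimb initiation factor, was at 29.8 and 51 CPM in MEF_fl and at 23.0 and 22.7 CPM on day 4. The groups did not overlap, but the MEF libraries differed from each other more than the lower of them differed from day 4. Tbx5 fell by 0.82 ± 0.28 (adjusted p = 0.0333), and this call was lost on leaving out MEF_fl replicate 2 or either Day4_fl_DMSO library, with adjusted p up to 0.251 and a change of -0.38 at its smallest. The paired value was -0.78 ± 0.20 (adjusted p = 0.0065). The 3 factors that fell are 3 of 8, where 26.3% of all genes tested fell in the first fit; with the replicate term 30.2% fell, and the same 3 factors were called.

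The remaining 5 factors were not called in the first fit. Tbx15 was at 232 and 218 CPM in MEF_fl and at 244 and 241 CPM in Day4_fl_DMSO. The 2 day 4 libraries were slightly the higher, with a change of 0.11 ± 0.07 (adjusted p = 0.207). Runx2 was at 44.3 and 39.7 CPM in MEFs and at 39.4 and 42.3 CPM on day 4, a change of -0.04 ± 0.12 (adjusted p = 0.792). Osr2 (0.15 ± 0.22), Tbx18 (0.09 ± 0.40) and Runx1 (-0.12 ± 0.31) also had overlapping groups and adjusted p from 0.6 to 0.865. With a replicate block per stage Tbx18 was called as higher (0.18 ± 0.07, adjusted p = 0.0272), and upper quartile scaling called Tbx15 as higher, or Osr2, Tbx15 and Tbx18 when joined with that block. Within the odd-skipped pair, then, Osr1 was at 28.9% and Osr2 at 111% of the MEF mean.

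In AF10-deleted cells, the same contrast of day 4 in DMSO against MEFs again lowered Osr1, Shox2 and Tbx5. Osr1 was at 83.3 and 114 CPM in MEF_creAF10 and at 26.6 and 21.4 CPM in Day4_creAF10_DMSO, and fell by 2.04 ± 0.20 (adjusted p = 3.77e-05). Shox2 went from 20.6 and 16.6 CPM to 7.79 and 7.43 CPM, and fell by 1.29 ± 0.23 (adjusted p = 0.000982). For both, neither day 4 library reached the lower MEF library. Tbx5 went from 28.5 and 48.0 CPM to 19.0 and 20.3 CPM and fell by 0.97 ± 0.28 (adjusted p = 0.0164); this call was lost without MEF_creAF10 replicate 2 (-0.54, adjusted p = 0.125) or either Day4_creAF10_DMSO library. Of all genes, 27.5% fell. With the replicate term, 31.0% of all genes and 4 of the 8 factors fell, Tbx15 being added at -0.18 ± 0.07 (adjusted p = 0.0456). Runx2 had no overlap but was not called (-0.29 ± 0.12, adjusted p = 0.0656), nor with the replicate term (adjusted p = 0.0521). A replicate block per stage called Runx2 as lower (-0.28 ± 0.09, adjusted p = 0.00778). Osr2 (0.07 ± 0.22), Tbx18 (-0.11 ± 0.40) and Runx1 (-0.03 ± 0.31) had overlapping groups and were not called.

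The difference between the 2 courses of reprogramming, which is also the difference between AF10 deletion in MEFs and on day 4, was tested as an interaction and called for 0 of the 8 factors and 0.0% of genes in the first fit, where 1 factor and 507 genes had an unadjusted p under 0.05. DESeq2 called 2 genes for it and no factor. The paired fit, here with the replicate block per stage, called 1.16% of genes and no factor. Tbx15 had the lowest adjusted p of the 8 there, at -0.28 ± 0.09 (adjusted p = 0.129). With the single replicate block 0 genes were called, and the adjusted p of Tbx15 was 0.713.

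Other genes of the limb and skeleton are counted over reprogramming of fl cells in the first fit, where 3588 genes rose and 3659 fell of 13936 tested. Of 37 further factors of limb and trunk mesenchyme tested, 2 rose and 16 fell, with a median change of -0.66 against 0.01 over all genes tested. Meox1, a somite homeodomain factor, fell from 6.56 to 0.608 CPM, and the T-box repressor Tbx2, which is also counted among the T-box genes, rose from 10.7 to 26.9 CPM. Of 15 skeletal factors, none rose and 10 fell, among them Sox9, the regulator of cartilage, from 39.3 to 4.58 CPM. Of 13 limb signalling genes 1 rose and 7 fell, with the limb bud growth factor Fgf10 going from 59.0 to 7.56 CPM. Of 8 other T-box genes, 3 rose and 1 fell. Of the 13 bone genes that RUNX2 regulates 5 rose and 7 fell, and Col1a1 fell from 14700 to 1660 CPM. Among 16 RUNX partners 4 rose and 5 fell, Cbfb, the shared partner of RUNX proteins on DNA, from 188 to 124 CPM (-0.60 ± 0.10, adjusted p = 0.000631).

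Markers of other cells also moved with the stage, and their part in these results was not tested. Macrophage and blood markers, 15 of 16 listed being in the tables, summed to 7.22 to 17.9 CPM in MEFs and 55.2 to 80.7 CPM on day 4. Laptm5 gave most of the day 4 sum, at 36.1 to 57.5 CPM, while Ptprc, which encodes the pan-leukocyte CD45, was at 0.504 CPM or less in every library. Endothelial markers (8) summed to 19.0 to 21.8 CPM in MEFs and 82.4 to 124 CPM on day 4. Most of the Day4_fl_DMSO sum came from Tek, which rose from a mean of 15.2 CPM in MEF_fl to 107 CPM. Kdr fell from 3.86 to 0.35 CPM in the same comparison. Of the 3 endothelial markers tested there, 1 rose and 1 fell in the first fit. Chondrocyte markers (8) summed to 116 to 372 CPM in MEFs and 45.7 to 60.4 CPM on day 4. Muscle markers (10) summed to 10.1 to 18.5 CPM in MEFs and 2.24 to 4.32 CPM on day 4. In MEFs the chondrocyte sum was 116 and 121 CPM in replicate 1 libraries and 369 and 372 CPM in replicate 2 libraries.

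Replicates 1 and 2 also differed in the factors themselves. Tbx18, known from the limb, the sclerotome and the epicardium, was at 55.3 and 119 CPM in MEF_fl and at 63.3 and 122 CPM in MEF_creAF10, replicate 2 being the higher by 1.1 and 0.94 on the log2 scale. On day 4 the gap was 0.25 to 0.42 in the 4 groups. Tbx5 was higher in replicate 2 MEFs by 0.78 and 0.75, while on day 4 the log2 ratio of replicate 2 to replicate 1 was -0.02 to 0.19. Osr1 was higher in replicate 2 by 0.48 and 0.45 in MEFs, while the same ratio was -0.31 to 0.20 on day 4. Osr2 differed more on day 4, where the log2 ratio of replicate 2 to replicate 1 was -0.36 to -0.52, than in MEFs (-0.17 and -0.02). For Shox2 that ratio was -0.35 and -0.31 in MEFs and -0.07 to -0.48 on day 4. Runx1 was lower in replicate 2 in every group, with a ratio of -0.16 to -0.76. The ratio of Runx2 ran from -0.21 in MEF_creAF10 to 0.27 in Day4_creAF10_DMSO. Tbx15 differed between replicates by at most 0.10 in any group. The sources differ in sex, and whether they differ in other respects is not given in the labels. A batch of culture or library preparation that shared the replicate number cannot be told apart from the cell source.

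**Figure D2:**
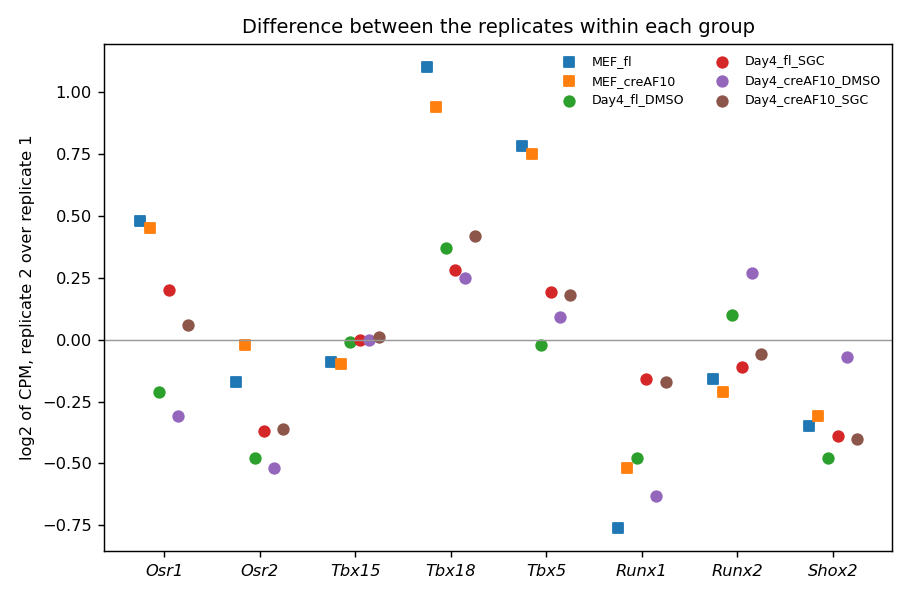
Log2 ratio of CPM in replicate 2 over replicate 1 (vertical axis) for each factor (horizontal axis), with squares for the MEF groups and circles for the day 4 groups. The MEF squares of Tbx18 and Tbx5 stand at 0.75 to 1.1, above all their day 4 circles, and the Tbx15 points lie near 0.

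AF10 deletion in MEFs, before reprogramming, left the 8 factors without a call. Osr1, the lowest in fold, was at 95.0 and 132 CPM in MEF_fl and at 83.3 and 114 CPM in MEF_creAF10. The groups overlapped, and within each replicate number Osr1 was lower by 0.19 and 0.22 on the log2 scale (paired fit -0.20 ± 0.08, adjusted p = 0.504). The other 7 factors lay between -0.13 and 0.11 in the paired fit, with every group overlapping. No gene passed the first fit (0 genes, 0.0%), although 300 genes, none of them a factor, had an unadjusted p under 0.05, and DESeq2 called 20 genes and no factor. The paired fit called 0.962% of genes and 1 factor had an unadjusted p under 0.05.

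On day 4 in DMSO, Osr1, Runx2 and Tbx15 fell on AF10 deletion in the paired fit, and 0 factors were called in the first fit. Osr1 was at 35.2 and 30.5 CPM in Day4_fl_DMSO and at 26.6 and 21.4 CPM in Day4_creAF10_DMSO. The groups did not overlap, and the paired change was -0.45 ± 0.10 (adjusted p = 0.00493). Runx2 was at 39.4 and 42.3 CPM with AF10 and at 28.5 and 34.4 CPM without it. Again the groups did not overlap, and Runx2 fell by 0.38 ± 0.09 (adjusted p = 0.0111). Tbx15 was at 244 and 241 CPM against 200 and 201 CPM, and fell by 0.27 ± 0.06 (adjusted p = 0.00982). Its replicates lay within a few CPM of each other in both groups, which did not overlap.

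In the first fit the adjusted p of Osr1, Runx2 and Tbx15 were 0.699, 0.612 and 0.591, and with a single replicate block over both stages they were 0.417, 0.246 and 0.183, so the 3 calls rest on the block per stage. Over all genes 0 passed the first fit (0.0%), while 988 genes and 3 factors had an unadjusted p under 0.05, and DESeq2 called 12 genes and no factor. The paired fit called 3.37% of all genes as lower, against 3 of the 8 factors. Tbx5 was at 23.0 and 22.7 CPM against 19.0 and 20.3 CPM, without overlap, and was not called (-0.22 ± 0.10, adjusted p = 0.187). Osr2 (-0.05), Tbx18 (-0.10), Shox2 (-0.11) and Runx1 (0.16) had overlapping groups and adjusted p from 0.385 to 0.726.

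Over all genes the paired fit called 469 of 13936 as higher and 470 as lower on AF10 deletion in DMSO. In that fit 1 of 37 limb and trunk factors rose, the homeobox gene Emx2 from 21.0 to 25.9 CPM, and none fell. Of 15 skeletal factors 1 fell, Trps1, a GATA-type repressor that acts in growth plate cartilage, from 116 to 93.9 CPM. Cbfb fell from 124 to 103 CPM (-0.27 ± 0.07, adjusted p = 0.0137) and the co-repressor gene Tle2 rose from 35.4 to 48.1 CPM, as 2 of 16 RUNX partners. Of the 13 bone genes that RUNX2 regulates, 2 rose: Spp1, which encodes osteopontin, from 1360 to 2070 CPM, and Dmp1 from 10.2 to 15.0 CPM. Of the 8 other T-box genes none was called, and of 13 limb signalling genes Bmp4 rose from 57.4 to 68.2 CPM. In the first fit no gene of these 6 lists was called. Fibroblast markers summed to 23500 and 22700 CPM with AF10 and to 22200 CPM in both libraries without it.

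For SGC0946 in fl cells on day 4, the paired fit called 7 of the 8 factors and 2470 of the 13936 genes tested. The first fit called 3 factors and 155 genes. Osr1, Runx2 and Tbx15 fell in the first fit. In the paired fit Osr2, Tbx18 and Tbx5 fell as well, Runx1 rose and Shox2 was not called. Osr1 went from 35.2 and 30.5 CPM in DMSO to 12.3 and 14.1 CPM in SGC0946. Its groups were well apart, and Osr1 fell by 1.31 ± 0.20 (adjusted p = 0.0217; paired 1.09e-09). Under the inhibitor Osr1 was at 11.6% of its MEF_fl level. Runx2 went from 39.4 and 42.3 CPM to 24.6 and 22.8 CPM, also without overlap, and fell by 0.78 ± 0.12 (adjusted p = 0.0199; paired 6.54e-07). Tbx15 went from 244 and 241 CPM to 165 CPM in both libraries, and fell by 0.56 ± 0.07 (adjusted p = 0.0136; paired 4.12e-07).

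These 3 calls of the first fit were lost on leaving out any 1 of the 4 libraries, where the changes stayed at -1.42 to -1.21 for Osr1, -0.84 to -0.73 for Runx2 and -0.57 to -0.55 for Tbx15, with adjusted p from 0.0962 to 0.213. The first fit called 0.23% of all genes as lower, against 3 of the 8 factors. DESeq2 called the same 3 factors.

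Among the factors called in the paired fit alone, Tbx5 went from 23.0 and 22.7 CPM to 12.7 and 14.4 CPM. Its groups did not overlap, and Tbx5 fell by 0.75 ± 0.10 (adjusted p = 4.22e-06; first fit 0.293). Osr2 went from 92.0 and 66.1 CPM to 67.5 and 52.3 CPM. The groups overlapped, while within each replicate number Osr2 was lower under SGC0946 by 0.45 and 0.34, and the paired change was -0.39 ± 0.07 (adjusted p = 0.000299; first fit 0.503). Tbx18 went from 80.9 and 104 CPM to 71.1 and 86.4 CPM with overlap, a paired change of -0.23 ± 0.07 (adjusted p = 0.0234; first fit 0.879). Shox2, which had fallen over reprogramming, was at 9.71 and 6.97 CPM in DMSO and at 9.48 and 7.25 CPM in SGC0946 (0.01 ± 0.14, adjusted p = 0.97). With the single replicate block Osr2, Tbx5 and Tbx18 were not called (adjusted p of 0.0588, 0.0693 and 0.658). The 6 factors that fell in the paired fit compare with 7.1% of all genes.

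The RUNX genes moved apart. Runx1 was at 37.2 and 26.8 CPM in DMSO and at 49.0 and 43.8 CPM in SGC0946, the highest level of any group in fl cells. Both treated libraries lay above both controls, and the paired change was 0.55 ± 0.10 (adjusted p = 0.000388; single block 0.0383; first fit 0.519). Of all genes, 10.6% rose in that fit, against Runx1 as 1 of the 8 factors. In fl cells in DMSO Runx2 stood above Runx1, at 13.6 ± 0.933 against 9.35 ± 1.97 TPM. The order in fl cells was turned under SGC0946, at 7.72 ± 0.276 against 13.4 ± 0.778 TPM, without overlap in either condition. In Day4_creAF10_DMSO, without the inhibitor, Runx2 at 9.98 ± 1.5 TPM and Runx1 at 10.2 ± 2.91 TPM overlapped. RSEM gave Runx1 and Runx2 average transcript lengths of 6905 to 7077 and 6109 to 6252 bases across the libraries, weighted by its transcript estimates.

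Both RUNX genes are known to be read from a distal and a proximal promoter, and gene-level values do not tell these apart. The table of RefSeq promoters used here (build GRCm38.p6) was matched for 4 of the 8 factors, Runx1, Runx2, Shox2 and Tbx18. The 250 bases before the start are shown for the RUNX pair, whose levels moved in opposite directions, with matches to the RUNX core TGTGGT on either strand in capitals. The proximal Runx1 start (chr16:92697330-92697579, minus strand) is rich in CpG with 27 of them, and the distal Runx1 start (chr16:92826075-92826324, minus strand) has 2. The Runx2 start listed (chr17:44814628-44814877, minus strand) has 0. It was the only start matched for Runx2, so distal and proximal starts of that gene are not compared. Over the 32851 promoters listed the median was 6 CpG, with quartiles of 2 and 16.
Runx1, proximal: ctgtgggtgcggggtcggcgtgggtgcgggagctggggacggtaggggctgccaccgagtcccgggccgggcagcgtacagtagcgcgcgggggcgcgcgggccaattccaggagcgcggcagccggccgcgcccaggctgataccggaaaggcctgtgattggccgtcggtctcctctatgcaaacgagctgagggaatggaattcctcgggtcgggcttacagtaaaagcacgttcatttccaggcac
Runx1, distal: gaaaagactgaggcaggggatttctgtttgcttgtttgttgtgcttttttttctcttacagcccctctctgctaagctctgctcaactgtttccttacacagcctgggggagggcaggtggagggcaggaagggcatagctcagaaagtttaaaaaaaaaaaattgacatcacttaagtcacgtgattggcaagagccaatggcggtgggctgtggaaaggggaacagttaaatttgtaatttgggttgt
Runx2: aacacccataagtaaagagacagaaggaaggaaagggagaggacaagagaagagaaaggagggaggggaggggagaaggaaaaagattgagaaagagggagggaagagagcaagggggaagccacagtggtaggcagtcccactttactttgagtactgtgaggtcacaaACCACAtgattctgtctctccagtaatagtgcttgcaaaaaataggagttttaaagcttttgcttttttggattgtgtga
The upstream bases of Runx2 hold 1 match, and those of the 2 Runx1 starts hold 0; 14.0% of all promoters of that length hold at least 1. When the 50 bases after the start are added, the distal Runx1 start has 2 matches, Runx2 has 3 and the proximal Runx1 start still has 0. At least 2 matches occur in 1.8% of all promoters over those 300 bases. No overlap with other motifs was searched, and a match is a description of the letters, not a site.

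**Figure D3:**
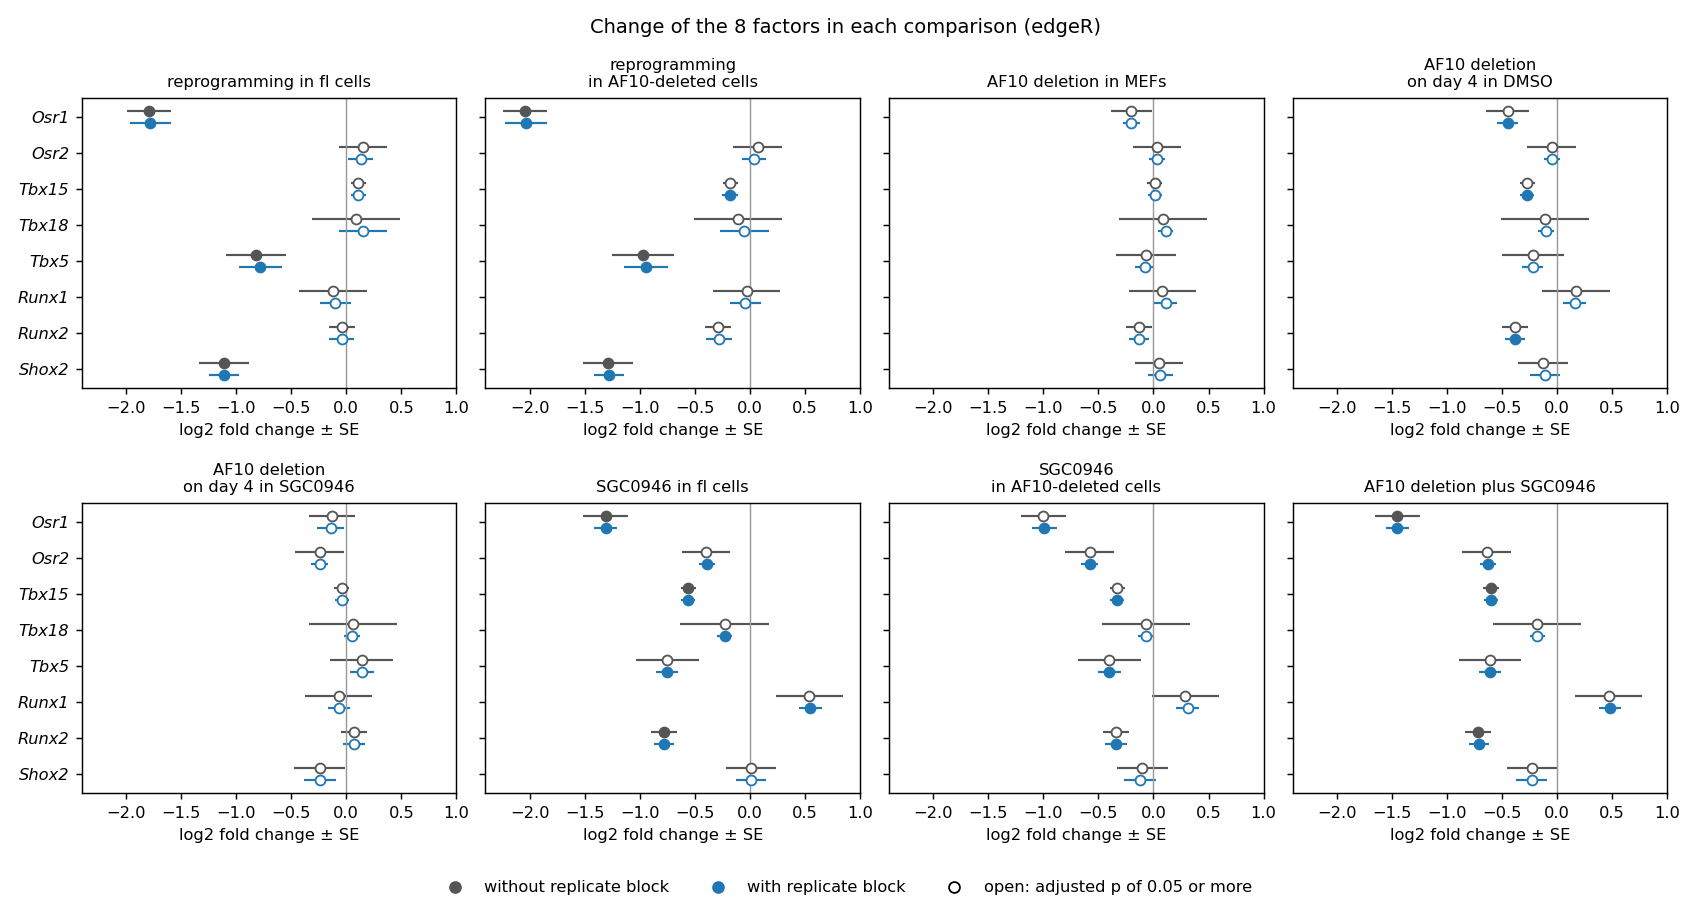
Log2 fold change ± SE (horizontal axes) of each factor in 8 comparisons by edgeR, without a replicate block (grey) and with one (blue; shared by both stages in the reprogramming panels and fitted per stage in the rest). Filled points passed an adjusted p of 0.05; under SGC0946 in fl cells Osr1 stands at -1.31, Runx2 at -0.78 and Runx1 at 0.55 in the paired fit.

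In AF10-deleted cells SGC0946 lowered 5 of the factors in the paired fit, Osr1, Osr2, Tbx5, Runx2 and Tbx15, and none in the first fit. Osr1 went from 26.6 and 21.4 CPM to 11.8 and 12.3 CPM, without overlap, and fell by 0.99 ± 0.11 (adjusted p = 1.68e-06; first fit 0.253). Osr2 went from 89.8 and 62.7 CPM to 57.1 and 44.4 CPM and fell by 0.58 ± 0.08 (adjusted p = 1.05e-05; first fit 0.667). Both treated Osr2 libraries were below both controls here. Tbx15 went from 200 and 201 CPM to 160 and 161 CPM, and fell by 0.33 ± 0.07 (adjusted p = 0.00164; first fit 0.253). Tbx5 went from 19.0 and 20.3 CPM to 14.0 and 15.9 CPM, and fell by 0.40 ± 0.10 (adjusted p = 0.014; first fit 0.89). Neither gene's groups overlapped.

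Runx2 went from 28.5 and 34.4 CPM to 25.4 and 24.4 CPM in these cells, and fell by 0.34 ± 0.10 (adjusted p = 0.0267; first fit 0.604). Its groups did not overlap, and its fall was 0.16 in replicate 1 and 0.50 in replicate 2. Runx1 went from 43.8 and 28.3 CPM to 46.8 and 41.5 CPM with overlap, and was not called (0.31 ± 0.10, adjusted p = 0.0621). Tbx18 (-0.07 ± 0.07) and Shox2 (-0.12 ± 0.14) were not called, with overlapping groups. The paired fit called 2.47% of all genes as lower, against 5 of the 8 factors. With the single replicate block Osr2 was called (adjusted p = 0.0438), while Osr1 (0.0911), Tbx15 (0.0638), Runx2 (0.263) and Tbx5 (0.524) were not. In the first fit 1 gene passed, 0.00718% of all, and 955 genes and 4 factors had an unadjusted p under 0.05. DESeq2 called 48 genes, among them Osr1 and Tbx15.

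**Figure D4:**
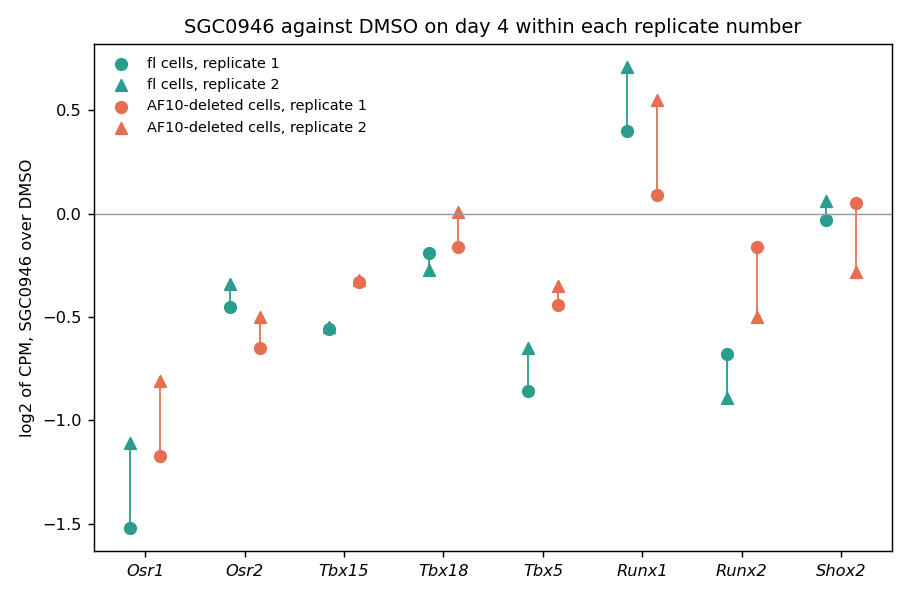
Log2 ratio of CPM in SGC0946 over DMSO on day 4 (vertical axis) for each factor (horizontal axis) within replicate 1 (circles) and replicate 2 (triangles), in fl cells (green) and AF10-deleted cells (orange); a line joins the replicates. Osr1, Osr2, Tbx15, Tbx5 and Runx2 lie below 0 in all 4 pairs of libraries and Runx1 above 0 in all 4.

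Whether the inhibitor acted differently with and without AF10 was tested as an interaction, and 0 of the 8 factors were called in either fit. The estimates were 0.45 ± 0.13 for Runx2 (paired adjusted p = 0.154), 0.36 ± 0.15 for Tbx5 (0.356), 0.32 ± 0.16 for Osr1 (0.492) and 0.23 ± 0.09 for Tbx15 (0.335), where a positive value is a smaller fall in AF10-deleted cells. Those of Osr2 (-0.18), Shox2 (-0.13) and Runx1 (-0.24) were negative, and that of Tbx18 was 0.16. In the first fit 0 genes passed (0.0%), and 303 genes and 2 factors had an unadjusted p under 0.05. DESeq2 called 2 genes and no factor, and the paired fit called 0.395% of genes.

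The effect of AF10 deletion under the inhibitor is a separate comparison, of Day4_creAF10_SGC against Day4_fl_SGC, and 0 factors were called for it in either fit. Osr1 was at 12.3 and 14.1 CPM in Day4_fl_SGC and at 11.8 and 12.3 CPM in Day4_creAF10_SGC (paired -0.14 ± 0.12, adjusted p = 0.853). Tbx15 was at 165 CPM in both fl libraries and at 160 and 161 CPM in the AF10-deleted ones (-0.04 ± 0.07, adjusted p = 0.936). The libraries of the 2 genotypes lay close together for both genes, and the 8 paired changes ran from -0.24 to 0.14. The AF10-deleted libraries were the lower for both genes without overlap, for Osr1 by less than the rounding shown. Again 0 genes passed the first fit (0.0%), with an unadjusted p under 0.05 for 251 genes and no factor; DESeq2 called 2 genes and no factor, and the paired fit called 0.172% of genes.

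Deletion and inhibitor together, against Day4_fl_DMSO, shared their control with the comparisons above, so the values are set side by side and not counted as further evidence. Osr1 fell by 1.45 ± 0.20 with both, against 1.31 with the inhibitor alone and 0.45 with deletion alone, the last in the paired fit. Tbx15 fell by 0.60 ± 0.07 with both, against 0.56 and 0.27, and Runx2 by 0.72 ± 0.12, against 0.78 and 0.38. These 3 were called in the first fit, where 0.538% of genes fell, and lost on leaving out any 1 of the 4 libraries, with adjusted p from 0.0645 to 0.154. In the paired fit Osr2 (-0.63 ± 0.07, adjusted p = 3.44e-07) and Tbx5 (-0.61 ± 0.10, adjusted p = 3.91e-05) fell as well, 5 of 8 factors where 9.25% of all genes fell. Runx1 rose by 0.48 ± 0.10 (adjusted p = 0.00124), where 12.3% of all genes rose. Tbx18 (-0.18 ± 0.07, adjusted p = 0.0732) and Shox2 (-0.23 ± 0.14, adjusted p = 0.265) were not called in the paired fit. With the single replicate block Tbx5 (0.108) and Runx1 (0.0543) were not called.

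Cell type markers were also compared between the inhibitor and DMSO, and their part in the results was not tested. The fibroblast sum was 23500 and 22700 CPM in Day4_fl_DMSO and 23500 and 22200 CPM in Day4_fl_SGC, and 22200 CPM in both Day4_creAF10_DMSO libraries against 23100 and 22100 CPM in Day4_creAF10_SGC. Pdgfra, a receptor of mesenchymal cells, was at 278 and 234 CPM in Day4_fl_DMSO and 342 and 279 CPM in Day4_fl_SGC (paired adjusted p = 0.00836). Of 15 fibroblast markers the paired fit called 4 as higher and 2 as lower with AF10, and 3 and 2 without it. The blood marker sum was 68.5 and 78.9 CPM in DMSO and 63.9 and 80.7 CPM in SGC0946 in fl cells, and 55.2 and 80.2 CPM against 63.7 and 76.5 CPM in AF10-deleted cells. Among them, in fl cells, the monocyte receptor gene Cd14 rose from 1.34 to 3.08 CPM and the lysozyme gene Lyz2 fell from 14.2 to 6.86 CPM in the paired fit. The muscle sum was higher under SGC0946, at 4.32 and 3.62 CPM against 2.24 and 2.89 CPM in fl cells without overlap, and at 3.67 and 4.22 CPM against 2.31 and 3.69 CPM in AF10-deleted cells with overlap. The endothelial sum was 96.2 and 119 CPM in DMSO and 82.9 and 124 CPM in SGC0946 in fl cells, and 90.3 and 113 CPM against 82.4 and 120 CPM without AF10. The chondrocyte sum was 45.7 and 60.4 CPM in DMSO and 51.3 and 57.5 CPM in SGC0946 in fl cells, and 46.6 and 56.3 CPM against 49.4 and 54.0 CPM without AF10. Both of these sums overlapped between DMSO and SGC0946 in each genotype. Of the 8 chondrocyte markers the paired fit called 1 in each genotype. In fl cells Acan rose from 0.0287 to 0.295 CPM (adjusted p = 0.0407). Comp fell from 8.41 to 5.10 CPM in AF10-deleted cells (adjusted p = 0.000964).

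The other genes of the pathway gave a mixed picture under SGC0946 in fl cells, read in the paired fit. Of 37 limb and trunk factors 1 rose and 7 fell. Their median change was -0.06, against -0.48 for the 8 factors and -0.01 over all genes tested. Because the factors were chosen with earlier results known, the gap between these medians is not a test. Gli3, the repressor that patterns the digits, fell from 139 to 101 CPM and the hindlimb factor Tbx4 from 55.9 to 38.8 CPM. Of 15 skeletal factors 2 rose and 3 fell, with Trps1 going from 116 to 80.0 CPM and Zfp521, a zinc finger partner of RUNX2, from 163 to 119 CPM (-0.45 ± 0.08, adjusted p = 0.0395 in the first fit, the only gene of the 6 lists called there). Of the 8 other T-box genes 3 rose and 1 fell: Tbx4, which stands in 2 of the lists, fell, and Tbx21 rose from 3.71 to 6.63 CPM.

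Within each genotype, no bone gene that RUNX2 regulates was called as lower in SGC0946 than in DMSO. For deletion plus SGC0946 against Day4_fl_DMSO, 3 of the 13 rose and 1 fell in the paired fit, Alpl, which encodes an alkaline phosphatase of mineralizing bone, from 12.3 to 8.19 CPM (-0.58 ± 0.15, adjusted p = 0.00748). In the paired fit 4 of 13 tested rose with intact AF10 and 3 rose in AF10-deleted cells. Spp1 rose from 1360 to 2710 CPM in fl cells (1.00 ± 0.07, adjusted p = 1.18e-10) and from 2070 to 2940 CPM in AF10-deleted cells (0.51 ± 0.07, adjusted p = 2.71e-05). The interaction of AF10 deletion and SGC0946 was called for Spp1 (-0.49 ± 0.10, adjusted p = 0.0177) and Dmp1 (-0.92 ± 0.18, adjusted p = 0.0108), 2 of the 13, in the paired fit. Col10a1, the collagen of hypertrophic cartilage, rose from 31.3 to 51.5 CPM in fl cells and from 35.3 to 55.7 CPM in AF10-deleted cells. Of 16 RUNX partners 1 rose and 1 fell in fl cells: Runx3, the third RUNX gene, rose from 3.52 to 5.42 CPM and the YAP-related co-activator Wwtr1 fell from 332 to 284 CPM. Of 13 limb signalling genes 3 rose and 1 fell, Wnt5a, which drives limb outgrowth, from 75.7 to 56.0 CPM, while the mesenchymal growth factor Fgf7 rose from 48.7 to 66.2 CPM.

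In AF10-deleted cells SGC0946 lowered 7 of the 37 limb and trunk factors and raised none, among them Tbx4 from 48.6 to 36.9 CPM and Six2 from 5.80 to 3.29 CPM. Zfp521 and Trps1 were the 2 of 15 skeletal factors that fell. Of the other T-box genes 1 rose and 1 fell, of the RUNX partners Tle2 fell, and of the limb signalling genes 2 rose and 2 fell. The first fit called none of the genes of these 6 lists in these cells.

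Across the 8 day 4 libraries, after each replicate number was centred, 6 of the factors varied together. On log2 CPM, Osr1 had a Pearson r of 0.977 with Tbx15, 0.965 with Tbx5, 0.949 with Osr2, 0.893 with Runx2 and 0.882 with Tbx18. Runx1 ran the other way, with r = -0.964 against Runx2 and -0.821 against Osr1. Shox2 had r between -0.346 and 0.394 with the other 7. The 8 points are 4 groups of 2, with SGC0946 and DMSO apart, so these values largely restate the differences between the groups. Of all genes tested, those closest to Osr1 were Smc4, a condensin subunit (r = 0.998), the Notch co-activator gene Maml2 (0.994) and Alcam (0.992). Among the 3 closest genes were, for Osr2, Slc5a3 (0.992), for Tbx15 Fam107b (0.997) and Col3a1 (0.994), for Tbx18 Sec22c (0.988), for Tbx5 Slc25a40 (0.991), for Runx1 Zmym2 (0.99), for Runx2 Gsr (0.993) and for Shox2 Chpf (0.967).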

How the data were processed

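Polyadenylated RNA was sequenced after a TruSeq RNA library preparation, per the labels' protocols. Per the submitters' processing notes the tools were RSEM and Bowtie and the mouse build was mm9; versions and the strand setting are not given in the sources used here. For 20325 genes the deposited files give, per the file headers, expected counts, TPM and FPKM values and transcript lengths. TPM were used as deposited by the authors for levels between genes, and the deposited FPKM values were not used. The tables of 10 libraries hold 25 date-like gene names each, so genes were joined by transcript identifiers.

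Expected counts were rounded. Genes were filtered with edgeR's filterByExpr (13936 kept) and scaled by TMM. Tests used edgeR 4.0.16 in R 4.3.3 (robust quasi-likelihood F test, Benjamini-Hochberg adjustment over all genes kept) in 1 fit over the 12 libraries; DESeq2 1.42.0, RLE and upper quartile scaling, no filter, a fit of the compared groups alone and leaving out each library were alternatives. An SE is the fold change divided by the square root of F. Correlations used log2 CPM with a prior count of 2.

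Replicate numbers recur in every group. Deviations of same-numbered libraries from their group means correlated at 0.286 to 0.737 over 15 pairs of groups (0.413 to 0.737 within a stage, 0.286 to 0.34 across), which, with the Y-linked counts, pairs the libraries by source; the labels do not name the sources. Within a stage the paired fit has a replicate block per stage, chosen after the correlations were seen. For day 4 against MEFs such a block would absorb disagreement between the sources, so a single block was used. The interaction with stage was read with the block per stage. The biological coefficient of variation was 0.148 without a block, 0.0906 with the single block and 0.0549 with the block per stage.

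The members, gene lists and tests were chosen with earlier results of these data known. The 8 factors are reported in every comparison; from each list, up to 3 called genes with the lowest p per comparison could be named, and for likeness the 3 genes with the highest r. Not every gene these rules pick is named. Coordinates and promoters come from RefSeq on GRCm38.p6, not from the mm9 files; overlaps of exons were read from GENCODE M21. Genes with near-identical copies share reads in RSEM.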

Additional observations from a re-analysis of the deposited data

Results flagged for a closer look

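All 8 factors were screened for pairs of comparisons with opposite directions within both replicate numbers, and 6 cases were found. The share of all genes that meet this rule was not computed, so the count has no background. Some of the changes lie near 0. AF10 deletion changed Tbx15 by 0.02 and 0.01 in MEFs and Runx2 by 0.04 and 0.10 in SGC0946. None of the interactions passed the test in edgeR's paired fit. AF10 deletion lowered Tbx15 on day 4 in DMSO and left it slightly higher in MEFs in both pairs, a difference of -0.28 (adjusted p = 0.129). The same interaction, -0.28, is the difference between reprogramming in AF10-deleted cells, where Tbx15 was lower on day 4 in both pairs, and in fl cells, where it was higher in both. For Tbx18 the difference between AF10 deletion on day 4 in DMSO and in MEFs was -0.21 (adjusted p = 0.359). Between SGC0946 and DMSO the effect of AF10 deletion differed by 0.36 for Tbx5 (adjusted p = 0.356), by -0.24 for Runx1 (adjusted p = 0.605) and by 0.45 for Runx2 (adjusted p = 0.154). Tbx5 and Runx2 were lower in AF10-deleted cells in DMSO and higher in SGC0946 in both pairs of libraries, and Runx1 the other way round.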

How the results depend on the processing

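Of 12 member changes called in the first fit, none changed sign under its alternatives (156 values in all); 31 lost the call, 30 of them when 1 library was left out. Leaving out a library left 0 to 0 members called for SGC0946 in fl cells and 0 to 0 for deletion plus SGC0946. The replicate block per stage moved the count of called members from 0 to 3 for AF10 deletion on day 4 in DMSO, from 3 to 7 for SGC0946 with AF10, from 0 to 5 without AF10, from 3 to 6 for deletion plus SGC0946 and from 3 to 5 for reprogramming in AF10-deleted cells. The same counts came with RLE scaling and that block, and with upper quartile scaling and that block except for reprogramming (6 in fl cells, of which Osr2, Tbx15 and Tbx18 rose). For SGC0946 in AF10-deleted cells the single replicate block gave 1, the compared groups alone 1 and DESeq2 2. The cause of these shifts was not tested. The scalings moved the median of all genes by at most 0.088.

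Over all genes, the first fit, single block, block per stage and DESeq2 called 155, 806, 2470 and 306 for SGC0946 with AF10, 1, 93, 1080 and 48 without AF10, 254, 1116, 3003 and 484 for deletion plus SGC0946, 0, 1, 939 and 12 for AF10 deletion on day 4 in DMSO, 0, 0, 24 and 2 in SGC0946, 0, 6, 134 and 20 in MEFs, 0, 1, 55 and 2 for its interaction with SGC0946 and 0, 0, 161 and 2 for that with stage.

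Uncalled values near 0 changed sign. With upper quartile scaling Runx1 in reprogramming of AF10-deleted cells was 0.06, alone or with the block per stage, Runx2 in fl cells 0.03 in both, and Tbx18 in AF10-deleted cells 0.06 with that block; without the filter Shox2 under SGC0946 in fl cells was -0.00. Leaving out each library in turn gave the following ranges of log2 fold change that cross 0. For AF10 deletion in MEFs these were Osr1 -0.45 to 0.05, Osr2 -0.06 to 0.11, Runx1 -0.25 to 0.51, Shox2 -0.11 to 0.23, Tbx15 -0.04 to 0.06, Tbx18 -0.46 to 0.75, Tbx5 -0.50 to 0.37. For AF10 deletion in DMSO these were Osr2 -0.33 to 0.20, Runx1 -0.18 to 0.46, Shox2 -0.36 to 0.13, Tbx18 -0.28 to 0.08. For the interaction with SGC0946 these were Osr2 -0.44 to 0.10, Runx1 -0.53 to 0.11, Shox2 -0.36 to 0.12, Tbx18 -0.06 to 0.37. For the interaction with stage these were Osr2 -0.36 to 0.18, Runx1 -0.34 to 0.42, Shox2 -0.42 to 0.07, Tbx18 -0.86 to 0.35, Tbx5 -0.59 to 0.28. For reprogramming in AF10-deleted cells these were Osr2 -0.21 to 0.31, Runx1 -0.38 to 0.26, Tbx18 -0.50 to 0.44. For reprogramming in fl cells these were Osr2 -0.11 to 0.39, Runx1 -0.45 to 0.31, Runx2 -0.12 to 0.04, Tbx18 -0.36 to 0.74. For AF10 deletion in SGC0946 these were Runx1 -0.16 to 0.01, Tbx18 -0.17 to 0.25. For deletion plus SGC0946 these were Shox2 -0.46 to 0.02, Tbx18 -0.40 to 0.01. For SGC0946 in AF10-deleted cells these were Shox2 -0.32 to 0.08, Tbx18 -0.29 to 0.13. For SGC0946 in fl cells these were Shox2 -0.22 to 0.26.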
